A study of Caenorhabditis elegans with 2 samples.

Results

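The numbered *col* genes of *Caenorhabditis elegans* encode most of the collagens of the cuticle, and every protein-coding gene of the WBcel235 assembly named *col-* followed by a number was taken, 156 of 19973 coding genes. Their surroundings were searched for sites of ELT-3, in lists of regions from chromatin immunoprecipitation followed by sequencing (ChIP-seq). The single group was strain OP75, genotype unc-119(ed3) III; wgIs75, collected as whole L3 larvae of pooled sexes at an age given as unknown. This stable transgenic line makes ELT-3 fused at its C terminus to GFP and FLAG, and the promoter and copy number of the transgene are not given in the labels. The 2 samples are biological replicates 1 and 2, with no untagged or mutant group among them, so nothing here is a contrast between conditions. Both replicates carried the *unc-119* allele and the transgene. Whole animals were used, so a site in few cells and a weakly occupied site in many cells cannot be told apart.

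The cuticle is the exoskeleton of the worm and is rebuilt at each larval molt. Its collagens are made in the epidermis beneath it as short chains of Gly-X-Y repeats, which form triple helices, are trimmed by proteases, secreted and crosslinked. ELT-3 is an epidermal transcription factor of the GATA family, whose zinc fingers bind the letters GATA within a longer site written WGATAR. The members had a median annotated protein of 304 residues, of which 153 (median) lay in runs of Gly-X-Y. The coding sequence annotated for *col-17*, translated from its first base, held 0 such residues, while another frame of the same transcript held 153. The frame given in the annotation was not read, so the annotation itself is not shown to be out of frame.

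For each gene the strongest region was the one with the highest signal, a value given to each region by the authors' peak caller on a scale that the sources used here do not state. A region counted where its summit, the centre of the region, lay from 2000 bases upstream of a start to 1000 bases past the gene end. The list called on both replicates pooled holds 30000 regions, background included. The 774 regions of the IDR list (irreproducible discovery rate, a filter on agreement between replicates) are the 774 highest of those, with signals of 29.5 and above. Each replicate also has a list of 30000 regions, on a signal scale of its own, with a median of 8.18 in replicate 1 and 5.91 in replicate 2.

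The bases under the 9 IDR regions of the family are shown first, because every IDR peak reported below for a numbered *col* gene is one of them. Each is the window from 100 bases before to 100 bases after the summit, without the side that an annotated UTR covers, read 5′ to 3′ on the strand of the gene named first. They were read from the RefSeq sequence of WBcel235, which has the coordinates of ce11. Capitals mark WGATAR, that is GATA with A or T before it and A or G after it, searched on both strands. A match on the other strand therefore appears with TATC in its middle. The stretches of *col-91* (chrIII:8263469-8263629), *col-149* with *col-150* (chrV:10292989-10293189), *col-93* with *col-94* (chrIII:10985713-10985913) and *col-73* (chrII:4874398-4874598) are on the minus strand. Those of *col-184* (chrX:13470410-13470540), *col-42* (chrV:18637640-18637840), *col-181* (chrX:12106103-12106260), *col-169* (chrX:6328804-6329004) and *col-166* (chrX:6281072-6281272) are on the plus strand.
col-91: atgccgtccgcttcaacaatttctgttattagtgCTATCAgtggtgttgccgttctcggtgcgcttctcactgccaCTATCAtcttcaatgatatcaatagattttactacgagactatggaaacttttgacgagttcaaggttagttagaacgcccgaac
col-184: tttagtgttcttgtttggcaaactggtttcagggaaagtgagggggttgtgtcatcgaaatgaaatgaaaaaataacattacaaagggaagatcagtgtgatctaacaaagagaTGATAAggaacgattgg
col-149 and col-150: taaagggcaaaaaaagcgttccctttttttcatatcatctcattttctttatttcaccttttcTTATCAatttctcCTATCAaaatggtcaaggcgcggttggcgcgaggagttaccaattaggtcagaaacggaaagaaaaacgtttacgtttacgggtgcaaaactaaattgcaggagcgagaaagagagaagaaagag
col-93 and col-94: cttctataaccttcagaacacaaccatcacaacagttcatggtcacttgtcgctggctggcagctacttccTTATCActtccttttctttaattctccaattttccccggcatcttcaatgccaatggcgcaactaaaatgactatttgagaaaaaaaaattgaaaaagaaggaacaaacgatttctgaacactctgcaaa
col-73: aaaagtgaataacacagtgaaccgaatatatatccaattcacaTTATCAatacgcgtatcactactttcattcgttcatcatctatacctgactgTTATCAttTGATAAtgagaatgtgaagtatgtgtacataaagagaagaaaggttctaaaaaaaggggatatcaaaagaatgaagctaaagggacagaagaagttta
col-42: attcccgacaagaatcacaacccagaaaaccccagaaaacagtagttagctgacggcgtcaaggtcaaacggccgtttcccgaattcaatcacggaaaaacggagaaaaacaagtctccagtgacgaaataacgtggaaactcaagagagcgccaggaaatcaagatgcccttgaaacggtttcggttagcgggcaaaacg
col-181: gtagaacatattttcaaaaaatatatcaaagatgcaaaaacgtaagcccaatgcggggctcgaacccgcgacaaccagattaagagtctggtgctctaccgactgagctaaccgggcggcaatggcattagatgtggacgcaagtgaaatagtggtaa
col-169: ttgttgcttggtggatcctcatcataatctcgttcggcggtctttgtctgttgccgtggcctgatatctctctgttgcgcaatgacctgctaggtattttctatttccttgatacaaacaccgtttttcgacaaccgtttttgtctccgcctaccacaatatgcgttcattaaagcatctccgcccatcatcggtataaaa
col-166: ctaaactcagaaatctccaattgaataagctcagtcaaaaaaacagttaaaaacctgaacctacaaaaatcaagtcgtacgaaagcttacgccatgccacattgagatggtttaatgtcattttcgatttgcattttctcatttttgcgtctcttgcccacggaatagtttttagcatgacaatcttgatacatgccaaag

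The first 5 of these windows held WGATAR and the last 4 did not. In *col-91* the stretch shown opens at the annotated start codon and holds 2 of the 3 matches of its window. In *col-184* it holds 1 of 2, since the other match of each lies in a UTR. The middle of the *col-181* stretch is an unnamed tRNA gene, described with that site below.

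With all 30000 pooled regions counted, the share of members with one was close to that of all coding genes. A pooled region lay in the window of 127 of 156 members (81.4%, 95% exact Clopper-Pearson interval 74.4 to 87.2), against 79.6% of all coding genes. The median signal of the strongest region was 16.5 over those 127 members, with a range of 10.3 to 57.1, against 14.7 over the other 15774 coding genes with a region. Of the members, 11 had an IDR peak as their strongest region (7.05%, interval 3.57 to 12.3), against 4.18% of all coding genes, a share within the interval. These 11 genes shared 9 peaks. With only the upstream part of the window, 5 members had an IDR peak (3.21%, 1.05 to 7.32), against 2.35% of all coding genes. Intervals on shares cover counting error only, and neighbouring genes that share a region are not independent.

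The strongest site of the family lay inside *col-91*, on chromosome III. Its pooled signal was 57.1, with 34.1 in replicate 1 and 20.4 in replicate 2, the highest value of the family in each of the 3 lists. The summit stood 95 bases into the gene, in coding sequence, and also within an intron of *ncr-2*, which encodes a relative of the human cholesterol transport protein NPC1. The nearest annotated start of any coding gene was that of *col-91* itself. The nearest WGATAR lay 18 bases from the summit.

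*col-184*, on the X chromosome, came next at 38.8, with signals of 24.6 in replicate 1 and 14.2 in replicate 2. Its summit lay 31 bases past the gene end, and its nearest WGATAR 37 bases from the summit. The neighbour *col-183*, 35.2% identical in protein, had its own, weaker region at 12.3, whose summit lay in the coding sequence of *col-184*.

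The peak between *col-150* and *col-149* on chromosome V had a pooled signal of 38.3. The replicates gave it 18.9 (replicate 1) and 17.1 (replicate 2). It stood 220 bases upstream of *col-149* and 474 bases past the end of *col-150*, both on the minus strand, and *col-149* had the nearest start. Within 500 bases upstream of its own start, *col-150* had a region of 12.2, seen in replicate 1 (8.33) and without a summit of replicate 2.

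On chromosome III, the peak 204 bases upstream of *col-93* had a pooled signal of 36.7, with 22.5 in replicate 1 and 12.3 in replicate 2. The same peak fell 995 bases past the end of *col-94*, at the edge of the window. It also lies in an intron of *dhc-4*, a dynein heavy chain gene, so its assignment to a collagen gene rests on distance alone. *col-92*, *col-93* and *col-94* encode proteins that are 99.0% to 99.3% identical between neighbours. *col-94* had no pooled region within 500 bases upstream, and the strongest region of *col-92* stood 505 bases upstream at 16.5 (11 in replicate 1 and 4.64 in replicate 2).

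*col-73*, on chromosome II, had 35.4 in the pooled list, 20.8 in replicate 1 and 15 in replicate 2. Its summit lay 1369 bases upstream, with a start of the uncharacterised gene *F11G11.15* closer, at 347 bases. The window held 3 WGATAR matches, the nearest 3 bases from the summit. A second, weaker region of 13.9 stood 359 bases upstream of *col-73*.

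The other 4 IDR regions held no WGATAR in this window. *col-42* (chromosome V) had a signal of 33.1 at 744 bases upstream, and it was the one IDR region of the family with a higher signal in replicate 2 (17.9) than in replicate 1 (15.2), though the lists have separate scales. *col-169* (X) had 32.3 at 256 bases upstream, with 21.8 in replicate 1 and 8.62 in replicate 2. *col-166* (X) had 31.1 at 251 bases past its end, with 20.1 in replicate 1 and 11.2 in replicate 2. In *col-42*, *col-169* and *col-166* the nearest WGATAR of the region lay 106 to 141 bases from the summit.

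*col-181* (X) had a signal of 32.6 at 58 bases past its end, with 19.7 in replicate 1 and 12.4 in replicate 2. A tRNA gene at positions 12106147 to 12106219 of the minus strand had its midpoint 23 bases from that summit, and the whole region held 0 WGATAR matches. tRNA genes lay in such windows of 4 of the 119 distinct strongest regions of the family (3.36%), at *col-181*, *col-185*, *col-54* and *col-85*. The share was 0.643% over all pooled regions and 1.68% over all IDR peaks. Nearer the start, *col-181* had a second region of 22.9, 82 bases upstream, with 2 WGATAR matches and signals of 14.3 in replicate 1 and 7.76 in replicate 2.

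**Figure D1:**
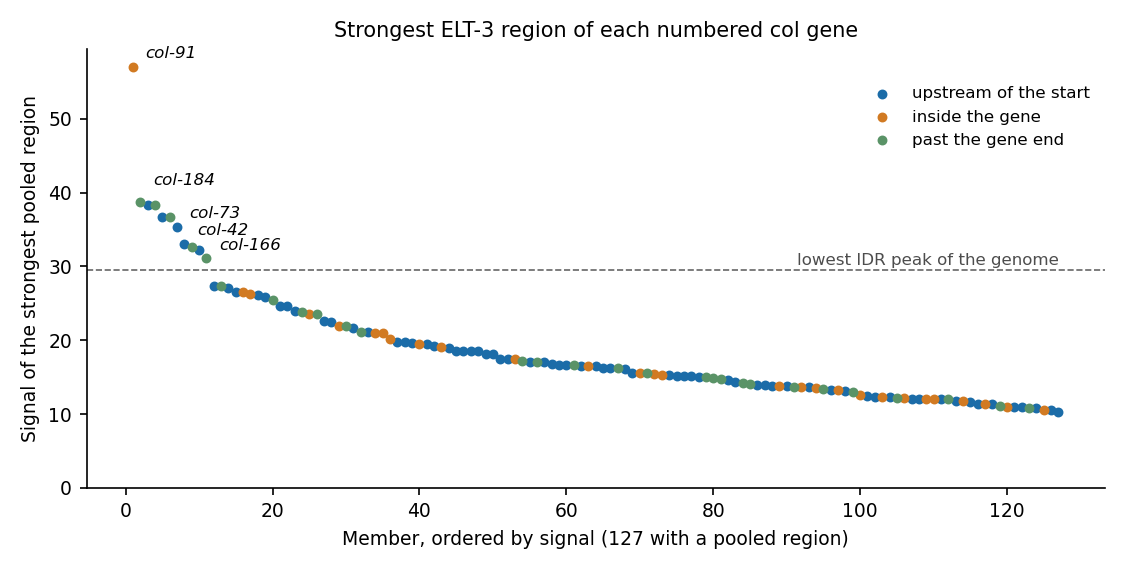
Signal of the strongest pooled region (vertical axis, the authors' scale) of the 127 members that had one, ordered from high to low, with colours for the position of the summit and a dashed line at 29.5, the lowest IDR peak of the genome. *col-91* stands alone at 57.1, 10 further genes lie between 31.1 and 38.8, and after a gap the rest descend from 27.3 to 10.3.

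The values just inside the IDR list were 32.6 (*col-181*), 32.3 (*col-169*) and 31.1 (*col-166*). Just outside it were *col-117* and *col-3*, which share a region of 27.3, and *col-170* at 27.1. *col-117* and *col-3* encode identical proteins (100%) and point away from each other, with the shared summit 1952 bases upstream of *col-117* and 134 bases past the end of *col-3*. That region had 14.2 in replicate 1 (rank 1933) and 14.3 in replicate 2 (rank 579). The members next in order were *col-167* at 26.5 and *col-158* at 26.5, then *col-58* (26.3), *col-185* (26.1), *col-62* (25.8) and *col-60* (25.4). *col-158* and *col-58* had their summits 3 and 8 bases inside the start, in the 5′ UTR. *col-58* reached 21.9 in replicate 1 but no summit of replicate 2 lay inside its region.

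By rank in the pooled list, the family was more frequent than coding genes as a whole down to rank 5000 and less frequent below rank 10000. The 774 ranks below the IDR list held 13 members (8.33% of 156, against 3.72% of all coding genes), and those from there to rank 5000 held 29 (18.6%, against 15.6%). Ranks above 10000 up to 20000 held 31 members (19.9%, against 24.5%), and those above 20000 held 15 (9.62%, against 14.2%). No test was made on these bands.

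No pooled region was found for 29 members. They include *col-12* and *col-13*, a neighbouring pair whose proteins are 99.4% identical, and *col-126* and *col-127*, a pair at 100%. In the replicate lists, 15 of the 29 had a region of replicate 1 and 14 had one of replicate 2. For 8 members none of the 3 lists held a region: *col-86*, *col-96*, *col-108*, *col-114*, *col-125*, *col-131*, *col-133* and *col-137*. The counts of 15, 14 and 8 are not given here for all coding genes, so they are not shown to be particular to the family. A gene absent from the lists is not shown to lack ELT-3, since each list ends at 30000 regions.

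Each IDR site contained a summit of both replicates, while many weaker sites did not. Counted once per member, the strongest pooled regions of the 127 members are 119 distinct regions. Of the 127, 102 contained a summit of replicate 1, 92 a summit of replicate 2, and 70 (55.1%, 46.0 to 63.9) a summit of each. The same shares over all coding genes are not given here, so these are not shown to be particular to the family. All 11 IDR members were among these 70, which the making of the IDR list would favour. Over the 70, the replicate signals correlated across genes with a Spearman rho of 0.488 and a Pearson r of 0.556 on the log2 scale. This is a description, since the points share their 2 libraries and some genes share a region. In each replicate alone, the 774 strongest regions reached 12 members in replicate 1 (7.69%, against 4.12% of all coding genes) and 11 in replicate 2 (7.05%, against 4.33%). In both replicates, 6 members were reached (3.85%, 1.42 to 8.18, against 2.1%), namely *col-73*, *col-91*, *col-149*, *col-150*, *col-169* and *col-184*. Over all coding genes, 823 were reached in replicate 1, 865 in replicate 2 and 419 in both. The partial overlap is therefore not particular to the family. The replicate 2 region that counted for *col-169* (15.2) was not the one at its strongest site, which had 8.62 there and lay below the 774 strongest, and it was also the best replicate 2 region of *col-170*. With replicate regions required to overlap each other the count was 5, against 1.91% of all coding genes. *col-58*, *col-80*, *col-93*, *col-94*, *col-166* and *col-181* were reached in replicate 1 alone, and *col-3*, *col-42*, *col-117*, *col-170* and *col-185* in replicate 2 alone.

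**Figure D2:**
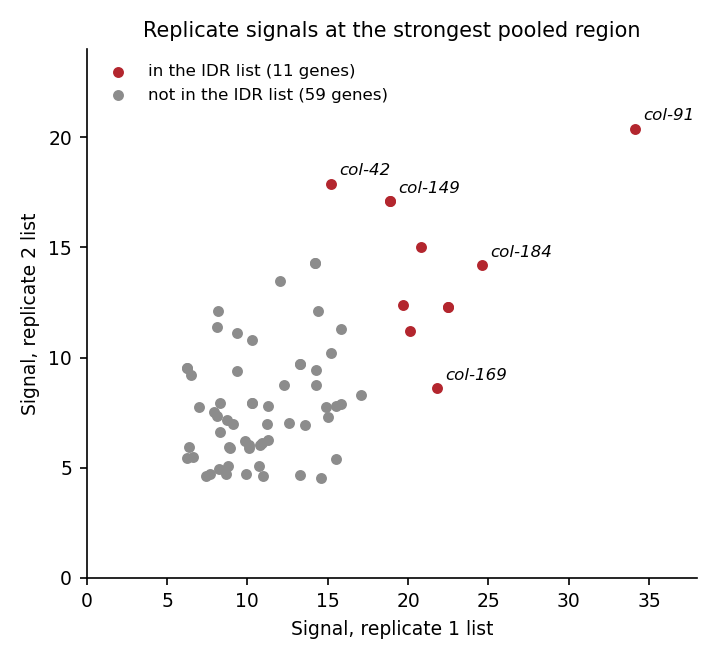
Signal of replicate 1 (horizontal axis) and of replicate 2 (vertical axis), each on the scale of its own list, at the strongest pooled region of the 70 members where a summit of each replicate lay inside it. The 11 IDR members (red, 9 distinct points) lie toward the upper right, led by *col-91* at 34.1 and 20.4, and *col-169* is the lowest of them in replicate 2 at 8.62.

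Regions close upstream of the start were more frequent in the family than over all coding genes. Within 500 bases upstream of a start, 55 of 156 members had a pooled region (35.3%, 27.8 to 43.3), against 19.6% of all coding genes. The replicate lists gave 61 members (39.1%) in replicate 1 and 51 (32.7%) in replicate 2, against 19.0% of all coding genes in either list. Among the 99 members with no other coding gene in those 500 bases, 40 had a region (40.4%, 30.7 to 50.7), against 19.2% of the coding genes in the same situation. Over the full 2000 bases upstream, 99 members had a region (63.5%, 55.4 to 71.0), against 50.3% of all coding genes. The limit of 500 bases was chosen after the profile around starts had been seen.

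In steps of 250 bases from the outermost annotated start, the family had 21.2 summits per 100 genes in the last step before the start, against 10.7 for other coding genes. In the step before it, from 500 to 251 bases upstream, it had 16.7, against 9.37. Farther upstream both groups were nearly flat, at 7.69 to 10.3 per 100 in the family and 7.49 to 8.04 in other genes. From 250 to 999 bases inside the start the family had fewer, 4.49 to 5.77, against 7.03 to 7.5. The family's genes are shorter, with a median of 1220 bases, against 2038 in other coding genes.

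**Figure D3:**
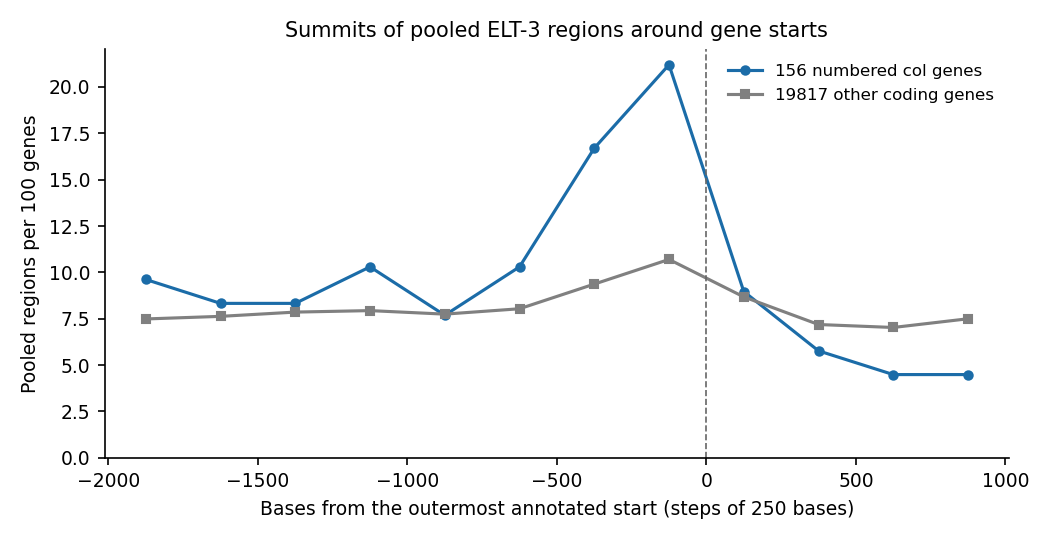
Summits of pooled regions per 100 genes (vertical axis) in steps of 250 bases around the outermost annotated start (dashed line; negative values are upstream), for the 156 *col* genes (blue) and the other 19817 coding genes (grey). The *col* line peaks at 21.2 in the step just before the start, where the grey line reaches 10.7, and runs below the grey line from 250 bases inside the start.

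The 55 members with a close upstream region are not the strongest set. Their signals ran from 10.4 to 38.3 with a median of 15.3, and the median summit was 247 bases upstream. Only 3 of them were IDR peaks (*col-149*, *col-93* and *col-169*), and 27 contained a summit of each replicate. For 33 of the 55 the close upstream region was also the strongest of the whole window. After those 3, the highest were *col-170* (27.1, at 300 bases), *col-167* (26.5, 286), *col-145* (24.6, 283), *col-144* (24, 222) and *col-181* (22.9, 82).

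Counting only the strongest region of each member, 71 of 127 were upstream (55.9%, 46.8 to 64.7), 28 inside the gene (22%, 15.2 to 30.3) and 28 past the end (22%). In other coding genes the shares were 41.0% upstream, 40.2% inside and 18.8% past the end. The upstream part made up 44.4% of the bases searched in the family, against 32.0% in other genes, because the family's genes are short. Per kilobase searched, the family had 0.228 strongest regions upstream, 0.119 inside and 0.179 past the end, and other genes had 0.163, 0.0987 and 0.150. Because each gene has a single strongest region, these values are lower for longer genes, so they do not compare the density of regions. With every pooled region counted, the family had 0.462 upstream and 0.429 past the end, against 0.334 and 0.32 in other genes. Inside the gene it had fewer, 0.247 against 0.298. Of the 28 inside, 18 were in coding sequence, 6 in introns and 4 in 5′ UTRs.

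The 9 distinct IDR regions lay upstream, inside and past the end of genes. Of the 11 IDR members, 5 had the summit upstream, 1 inside (*col-91*) and 5 past the end. For *col-94* and *col-150* the downstream peak is the upstream peak of the neighbour, which leaves *col-184*, *col-181* and *col-166*, all on X, with summits 31, 58 and 251 bases past the end. Positions of IDR peaks are not given here for other coding genes, so these are not shown to be particular to the family. X had 10.2 IDR peaks per megabase, against 5.40 to 9.22 on the other chromosomes. Over all strongest regions of members, median signals were 16.6 upstream, 15.4 inside and 16.4 past the end. The summit was nearest to the member's own start in 89 of 127 cases (70.1%), and 44 summits (34.6%) lay inside another coding gene, so assignment of those regions to the collagen gene is uncertain. Neither share is given here for other coding genes, so neither is shown to be particular to the family.

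GATA sequences were more frequent at the upstream sites than beside them. Among the 71 upstream regions, 36 had WGATAR no more than 100 bases from the summit (50.7%, 38.6 to 62.8), against 43 of 142 windows of the same length centred 500 bases to either side (30.3%, 22.9 to 38.5). For the upstream regions of other coding genes the share was 44.0%, against 36.9% in their flanks. Inside the gene, 5 of 28 regions of the family held it (17.9%, 6.06 to 36.9), against 30.4% of flanks, and 40.7% of such regions of other genes did. Past the end it was 10 of 28 (35.7%, 18.6 to 55.9), against 30.4% of flanks. The GC content of the windows differed along with position, with medians of 37.3% upstream, 41.8% inside and 36.1% past the end, and its part in these shares was not tested. GC content of the flanks is not given here. Upstream summits stood at a median of 600 bases from the start, so some of their flanks lie inside the gene, and sites and flanks were not matched for this. Over all 127 strongest regions the share was 40.2% (31.6 to 49.2), against 42.4% in other coding genes and 41.2% over all 30000 pooled regions.

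**Figure D4:**
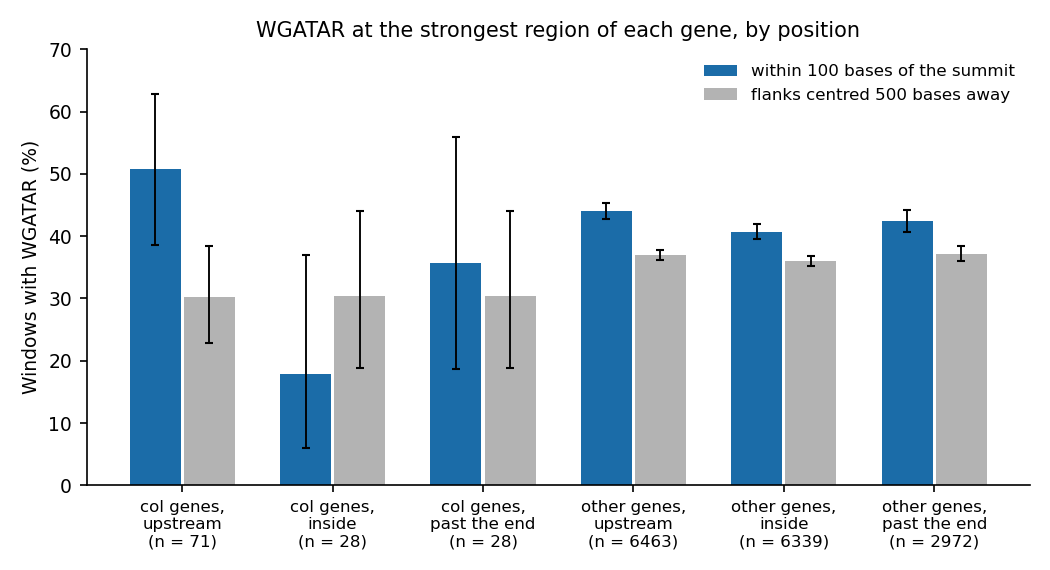
Share of windows with WGATAR (vertical axis, percent, with 95% exact intervals) at the summit (blue) and in flanks 500 bases away (grey), by position of the strongest region, for *col* genes on the left and other coding genes on the right. Upstream regions of *col* genes reach 50.7%, against 30.3% in their flanks, while regions inside *col* genes are at 17.9%.

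The share was highest among the strongest regions. Of the 119 distinct strongest regions, the 40 highest (18.5 to 57.1) held WGATAR in 55.0% (38.5 to 70.7), the next 40 in 37.5% (22.7 to 54.2) and the 39 lowest in 25.6% (13 to 42.1). The same split was not made over all regions. There the share was also higher at strong sites, at 41.2% of all pooled regions and 74.3% of all IDR peaks. The rise is therefore not shown to be particular to the family. The 9 distinct IDR regions held it in 5 cases (55.6%, 21.2 to 86.3), against 74.3% of all 774 IDR peaks, a value within that wide interval. The same 5 held TGATAA, which is one form of WGATAR, against 58.1% of all IDR peaks. In gene promoters, taken as 250 bases before to 50 after the start, 97 members had WGATAR (62.2%, 54.1 to 69.8), against 54.5% of all coding genes. A match is a description of letters and no match says nothing on whether the factor was there.

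The members were spread over all 6 chromosomes, and the IDR peaks were not on all of them. Chromosome IV has the most members, 41, with 0 IDR peaks (interval 0 to 8.60%, against 3.27% of the other coding genes of IV) and a median signal of 12.7, against 14.4 in the other coding genes of IV. Chromosome I has 21 members and 0 IDR peaks (0 to 16.1%), against 6.16% of its other coding genes, although 20 of them had a pooled region and their median was 18.5. Chromosome X has 27 members and 4 IDR genes (14.8%, 4.19 to 33.7), against 6.10% of other genes on X. WGATAR was found at 6 of the 24 strongest regions on X (25%), while the other genes of X had it at 45.2%. The family's share was also lower on IV (33.3%, against 41.5%) and V (37.5%, against 44.3%). It was higher on I (50%, against 39.4%), II (57.9%, against 43.8%) and III (50%, against 38.9%). Chromosome III had 3 IDR genes of 12 members (against 5.21% of its other genes), chromosome V had 3 of 31 (2.66%) and chromosome II had 1 of 24 (3.15%). The intervals are wide at these counts, and differences between chromosomes were not tested.

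**Figure D5:**
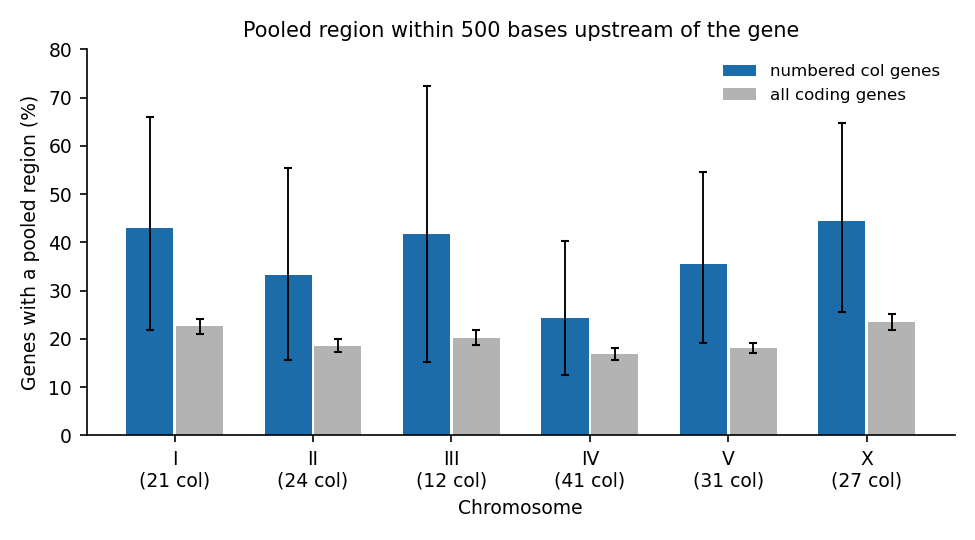
Share of genes with a pooled region within 500 bases upstream (vertical axis, percent, with 95% exact intervals) by chromosome, for *col* genes (blue) and all coding genes (grey). *col* genes run from 24.4% on IV to 44.4% on X, above the grey bar on each chromosome (16.8% to 23.5%), with intervals that include the grey value on I, II, III and IV but not on V and X.

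Members often sit side by side. With at most 10000 bases between genes, 50 members formed 21 clusters, 15 of them pairs, and 106 stood alone. In clusters 7 of 50 had an IDR peak (14%, 5.82 to 26.7) and the median signal was 20.4. Among single members it was 4 of 106 (3.77%, 1.04 to 9.38) with a median of 15.3. Over all coding genes the IDR share was 4.18%, close to that of the single members, and the median signal of other coding genes was 14.7. Shared peaks add to the count in clusters, as *col-149* with *col-150* and *col-93* with *col-94* share 1 each. Within 500 bases upstream, 22 of 50 clustered members (44.0%, 30 to 58.7) and 33 of 106 single members (31.1%, 22.5 to 40.9) had a region, against 19.6% of all coding genes. In 15 neighbouring pairs the proteins were at least 90% identical. Reads that match both copies cannot be placed, and how they were handled was not given in the sources used here, and values inside such genes are uncertain.

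The largest cluster, *col-167* to *col-171* on X, holds 5 genes on the plus strand whose proteins are 77.9% to 99.0% identical between neighbours. Their 500 bases upstream were 49.0% to 52.8% identical in an alignment of bases. The same stretches of *col-46* with *col-47* and *col-79* with *col-39*, whose proteins are 27.3% and 33.6% identical, gave 44.5% and 48.1%. Within 500 bases upstream, *col-167* had 26.5 (15.5 in replicate 1 and 7.82 in replicate 2), *col-169* had 32.3 and *col-170* had 27.1 (14.4 and 12.1). These summits lay at 286, 256 and 300 bases. *col-168* and *col-171* had no pooled region there, although *col-168* and *col-167* encode proteins that are 99.0% identical. The upstream 500 bases of *col-168* held 4 WGATAR matches, against 6 for *col-167* and 1 each for *col-169* and *col-170*. *col-168* had its strongest region 206 bases past its end (21.1).

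The 3 genes *col-144*, *col-145* and *col-10* on chromosome V show the opposite, with a region at each. A reporter for *col-144* has been used in work on *elt-3* and ageing. Their signals were 24 for *col-144* (14.3 in replicate 1 and 9.42 in replicate 2), 24.6 for *col-145* (15.2 and 10.2) and 19.7 for *col-10* (15 and 7.31). The summits stood 222, 283 and 179 bases upstream, and the windows held 2, 2 and 1 WGATAR matches. The proteins are 90.8% and 92.2% identical between neighbours, and the upstream 500 bases, aligned as bases, 47.4% and 48.8%. Their windows are shown to let the 3 sites be compared, with WGATAR in capitals, on the minus strand of WBcel235 at chrV:9160764-9160964, chrV:9163188-9163388 and chrV:9165386-9165586.
col-144: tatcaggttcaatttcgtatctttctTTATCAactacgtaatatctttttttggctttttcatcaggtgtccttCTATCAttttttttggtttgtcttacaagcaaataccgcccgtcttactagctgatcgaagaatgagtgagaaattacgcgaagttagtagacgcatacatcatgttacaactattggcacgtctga
col-145: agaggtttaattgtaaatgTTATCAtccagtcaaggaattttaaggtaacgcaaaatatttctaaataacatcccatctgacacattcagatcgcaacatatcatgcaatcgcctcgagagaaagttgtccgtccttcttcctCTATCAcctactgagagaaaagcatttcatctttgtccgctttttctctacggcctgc
col-10: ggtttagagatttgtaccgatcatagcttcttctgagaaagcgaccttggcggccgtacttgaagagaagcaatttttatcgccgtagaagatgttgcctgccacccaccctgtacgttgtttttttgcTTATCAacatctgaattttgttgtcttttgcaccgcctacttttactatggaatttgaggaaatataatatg

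The capitals fall at different places in the 3 windows. The nearest match within the region lay 24 bases from the summit in *col-144*, 45 in *col-145* and 31 in *col-10*. Over the 119 distinct strongest regions of the family, 78 held WGATAR somewhere in the region, at a median of 59.5 bases from the summit, and 32 within 50 bases. Such counts and distances are not given here for all pooled regions or flanks, so they are not shown to be particular to the family.

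Other genes of the cuticle give a setting for these values, beside the 79.6% of all coding genes with a pooled region and 4.18% with an IDR peak. The genes for making collagen (median length 5277 bases) and the cuticlin genes (3952) are longer than the *col* genes (1220) and the body-shape collagen genes (1218), so their search windows were longer. Of 20 collagens named for body shape, all 20 had a pooled region in the same window, with a median of 18.9, and 4 had an IDR peak (20%, 5.73 to 43.7). These were *rol-8* (43.3), *lon-3* (39.3) and the neighbours *dpy-2* and *dpy-10*, which share a region of 31.7. In replicate 2 that shared region had 5.20, below the list median of 5.91. Of 14 genes for making, trimming and crosslinking collagen, all 14 had a pooled region (median 18.8) and 0 an IDR peak (0 to 23.2%). The highest were *dpy-11* (28.7), which encodes a thioredoxin-like enzyme, *dpy-18* (28.2), a subunit of prolyl 4-hydroxylase, *pdi-2* (27.9), a protein disulfide isomerase, and *dpy-31* (27.7), an astacin protease. Of 35 cuticlin genes, 31 had a region (median 14.3) and 1 an IDR peak, *cut-2* (34.4). Of 4 collagen genes outside the cuticle, *emb-9* (15.5) and *cle-1* (18.4) had a region, *let-2* and *mec-5* had none, and 0 had an IDR peak.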

How the data were processed

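ChIP-seq of tagged ELT-3 was analysed from region lists in ce11 coordinates. Per the labels, assemblies were ce10 and ce11 and fragmentation was by sonication; the ce10 lists were not used. The signal of each region is the value deposited by the authors (column 7), and it served only to rank and describe regions within a list. The aligner, peak caller, IDR threshold and treatment of reads with several matches were not given in the sources used here. No read counts are in these lists, and depth is unknown. Region width is fixed at 340 bases in the pooled and IDR lists, 344 in replicate 1 and 336 in replicate 2.

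Genes came from Ensembl release 115. Upstream and past-end positions were measured from annotated starts, and many worm messages are trans-spliced, so the true start can lie farther upstream. A region was given a replicate's signal where a summit of that replicate lay inside it. Shares have 95% exact Clopper-Pearson intervals (scipy 1.17.1, Python 3.11.15). Protein identity came from global alignment (Biopython 1.88, BLOSUM62, gap costs 11 and 1). With 1 group and no contrast, no hypothesis test was made. The named genes are all members with an IDR peak, the 20 with the strongest pooled regions, those at the border of the IDR list, those strong in both replicates, and clusters of 4 or more genes, and further members stand as examples chosen after their values were seen. No member lay within 40000 bases of *elt-3*, where transgene copies could add reads. The members and the lists of other cuticle genes were chosen with earlier results of these data known. Region assignment and the motif search were tested on simulated regions.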

Additional observations from a re-analysis of the deposited data

How the results depend on the processing

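Of 29 alternatives, 10 were classed as moving the value and 19 were not, but the 19 include clear drops. The count of 127 members with a pooled region (79.6% of all coding genes) was 102 with a window from 1000 bases upstream to the gene end (64.6%). It was 99 with the upstream 2000 bases alone (50.3%) and 105 with the member's own start nearest to the summit (63.3%). Under that last rule the count of 11 members with an IDR peak was 8 (2.73%). The count of 11 members with an IDR peak (4.18% of all coding genes) was 5 with a window from 1000 bases upstream to the gene end (2.74%), 5 with the upstream 2000 bases alone (2.35%), 4 with the stronger part of the IDR list (2.11%) and 24 with the pooled list taken down to a rank of double the IDR list's length (7.9%). The count of 6 members strong in both replicates (2.1% of all coding genes) became 13 with as long a list from each replicate (4.21%). The upstream share of 55.9% was 44.9% with a 1000-base upstream window. The WGATAR share of 40.2% was 26.8% within 50 bases, 67.7% over the whole region and 23.6% for TGATAA alone, and with 1 replicate list in place of the pooled one it was 43.0% to 52.2%. The cause of these moves beyond the wider or narrower windows and counts was not tested. The count within 500 bases upstream, and its alternatives, were chosen after seeing the data.

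Each list ends at 30000 regions, reads cannot be recounted, and no control lists were used, so absence from a list and weak signals are not measurements of absence. Gene assignment by distance does not say which gene a site acts on.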

Other observations

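A small nucleolar RNA gene, *F12F6.11*, lay near the strongest region of *col-128*, a signal of 21.9 whose summit stood 55 bases past the collagen gene, with its midpoint 119 bases from the summit. A further 6 pairs of *col* genes besides *col-93* with *col-94* and *col-149* with *col-150* shared their strongest region: *col-46* with *col-47*, *col-50* with *col-51*, *col-39* with *col-79*, *col-3* with *col-117*, *col-159* with *col-160*, and *col-9* with *col-44*. In *col-159* the shared region (23.5) was intronic, and it lay 68 bases past the end of *col-160*. *col-80* had 23.8 at 112 bases past its end, 561 bases upstream of *bli-1*, a cuticle collagen gene for struts of the adult cuticle, with 19.7 in replicate 1 and no summit of replicate 2 inside the region.

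*col-19*, a collagen gene of the adult stage, had 12.3 at 34 bases inside its start, and *col-99*, the longest member at 9946 bases, which encodes a transmembrane collagen, had 13.7 in its coding sequence.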
